A study of Mus musculus with 7 samples.

Results

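Axon guidance ligands and receptors were taken as every gene whose symbol begins with Sema, Plxn, Epha, Ephb, Efna, Efnb, Slit and a digit, Robo, Nrp, Ntn or Unc5, together with *Dcc*. This rule uses names alone and no measured value. It found 75 genes, measured by 98 probes, among 32095 gene or transcript names on the array, and 64 of them (78 probes) were bright enough to be tested, among 20723 names tested in all. Of the 75, *Unc50*, *Unc5cl*, *Plxna4os1* and *Nrp* share letters with the guidance genes and are counted apart from the families. Counts over all members, called guidance genes below, include them, and *Unc50* and *Nrp* are among the 64 tested. The 11 genes that were not tested are *Epha3*, *Epha6*, *Epha8*, *Ntn5*, *Ntng1*, *Ntng2*, *Plxna4os1*, *Robo3*, *Sema3g*, *Unc5cl* and *Unc5d*.

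The RNA came from nasal tissue of female BALB/c mice that were 6 weeks old when exposure began, so that the tissue of 4 and of 8 weeks also differs in age. Exposed mice inhaled diesel exhaust particles (DEP) at 100 µg/m3 for 1 hour a day on 5 days a week, for 4 weeks (4 arrays) or 8 weeks (3 arrays), and the controls of both times received the saline vehicle. Each array carried the RNA of DEP-exposed mice, labelled with Cy5 (red), together with control RNA, labelled with Cy3 (green). All values are log2 ratios of DEP over control, so that 1 is a 2-fold higher level in DEP tissue. No array has the dyes the other way round, so that a dye effect of a probe and an effect of DEP cannot be told apart, and the 4-week and the 8-week arrays lie on different slides, so that slide and time of exposure cannot be told apart either. The labels call the arrays biological replicates, and the number of mice behind an array is not given in the sources used here. In this whole tissue, fewer cells of a type and less RNA per cell cannot be told apart.

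Guidance cues steer the growing tip of an axon by attraction or repulsion. Semaphorins act through plexins, with neuropilins as coreceptors of the secreted class. Ephrins, which are tied to the cell membrane, bind Eph receptor tyrosine kinases and can signal in both directions. Slits repel through Robo receptors, and netrins attract through Dcc or repel through the Unc5 receptors. In the nose, olfactory sensory neurons are replaced throughout life and send new axons to the olfactory bulb, and several of these cues sort the axons on their way. Outside neurons, the same genes act in blood vessels, epithelium and connective tissue.

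A gene was called when its adjusted p in the limma fit was 0.05 or less over all probes tested. At 4 weeks 26 of the 64 genes were called, where 38.1% of all genes were, and at 8 weeks 20 were, where 37.2% of all genes were. In detail, 20 of the 64 genes (31.25%) were higher in DEP tissue after 4 weeks, where 21.6% of all genes tested were, and 6 (9.38%) were lower, where 16.4% of all genes were. After 8 weeks 17 genes (26.6%) were higher, against 20.3% of all genes, and 3 (4.69%) were lower, against 16.9%. The median log2 ratio of the 64 genes was 0.04 at 4 weeks and 0.01 at 8 weeks, beside 0.00 and 0.01 for all genes tested. With median centring in place of loess the direction of the 8-week calls turned, to 9 higher and 18 lower, and the median of all genes moved to -0.10. The calls over all genes turned as well: 27.0% of them were higher, beside 33.3% of those of the guidance genes. That centring gave 15 higher and 9 lower genes at 4 weeks, and the scanner software's processed signals gave 14 higher and 7 lower at 8 weeks. There 42.7% and 50.9% of the calls over all genes were higher, beside 62.5% and 66.7% of those of the guidance genes. Without replicate 2 of 8 weeks 11 genes were higher and 1 lower at 8 weeks, without replicate 1 of 4 weeks 5 were lower at 8 weeks, and without replicate 2 or replicate 4 of 4 weeks 3 were lower at 4 weeks. Of the 11 genes called at both times, 8 were higher at both, 1 (*Epha7*) was lower at both and 2 changed direction. The matching shares of all genes were not counted, so these numbers are not read as particular to the guidance genes.

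**Figure D1:**
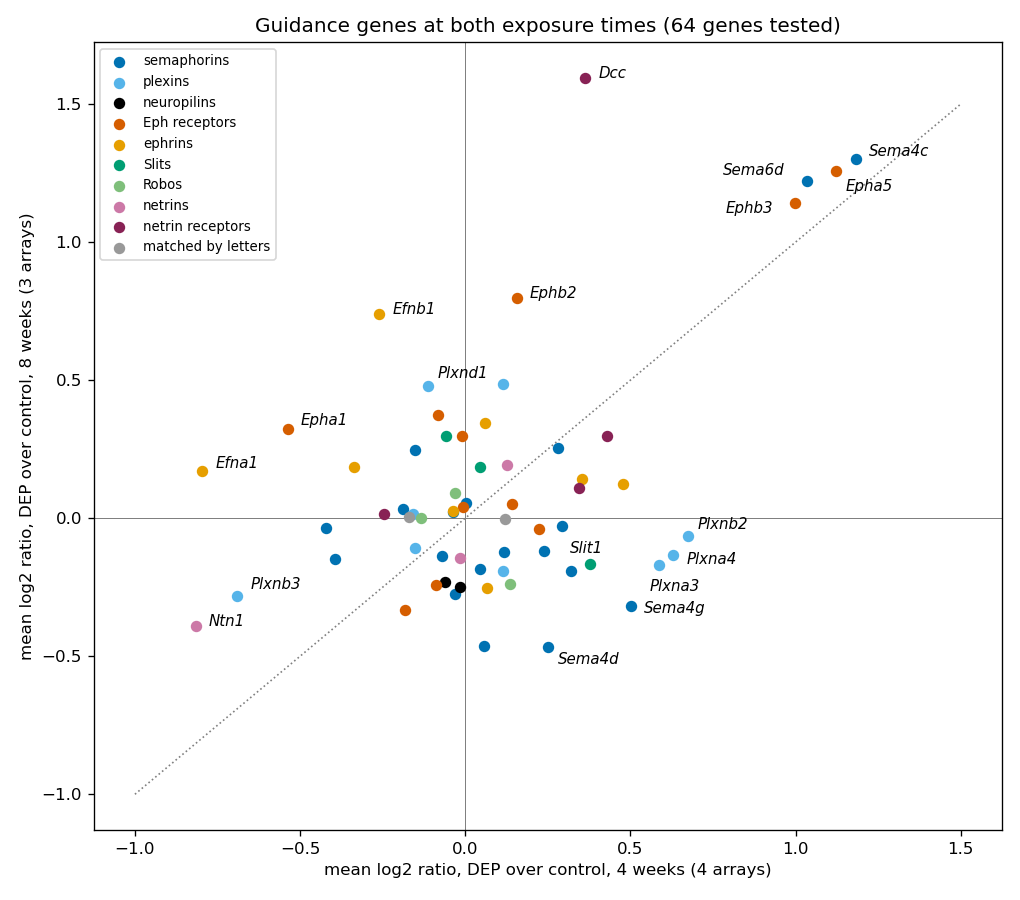
Mean log2 ratio of DEP over control for the 64 genes tested, *Unc50* and *Nrp* among them. The horizontal axis gives 4 weeks (4 arrays) and the vertical axis 8 weeks (3 arrays). Each point is a gene, coloured by family, and the dotted line marks equal values. *Sema4c*, *Sema6d*, *Epha5* and *Ephb3* lie near or above 1 at both times, *Dcc* lies far above the line, and *Plxna3*, *Plxna4* and *Plxnb2* lie to the right at 4 weeks and near 0 at 8 weeks.

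A small group of receptors and membrane-bound ligands stood at the top at both exposure times. *Sema4c*, *Epha5* and *Sema6d* passed the study's thresholds (unadjusted p up to 0.01, with a change of 2-fold or more) at both times, while 102 of all 20723 genes (0.492%) did so in the upward direction. Of those 102 genes, 68 had mean log2 ratios less than 0.2 apart between the times, *Sema4c*, *Epha5* and *Sema6d* among them. At the study's thresholds 3 guidance genes were higher at 4 weeks, where 0.931% of all genes were, and 5 at 8 weeks, where 2.09% of all genes were. No guidance gene was lower past them at either time, where 0.367% and 0.844% of all genes were; in the limma fit without a fold limit, 6 and 3 were lower. *Sema4c*, *Epha5*, *Ephb3*, *Robo2* and *Sema6d* are on the study's own list of changed genes, chosen on the 4-week samples. Their 4-week values are therefore not independent evidence of their direction, their size or their rank within a family.

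The promoters of the 4 genes that stood near or above 2-fold at both times are shown. Each of these genes lay between 0.94 and 1.41 on all 7 arrays. Their values did not all rise and fall together: over replicates 1 to 3 of 8 weeks *Sema4c* and *Ephb3* fell while *Sema6d* rose. Each line is the 250 bases before the transcription start, 5′ to 3′ in the direction of the gene, from RefSeq on GRCm38.p6. They lie at chr1:36558382-36558631 on the minus strand (*Sema4c*), chr2:124089719-124089968 on the plus strand (*Sema6d*), chr5:84417383-84417632 on the minus strand (*Epha5*) and chr16:21204545-21204794 on the plus strand (*Ephb3*). For *Sema4c* and *Sema6d* RefSeq has 2 starts and the one farther upstream is shown. Capitals mark matches, on either strand, to GCGTG (the core of the site bound by the aryl hydrocarbon receptor), CACGTG (an E-box) or TGACNNNGC (the core of the antioxidant response element). TGACNNNGC ends in the letters with which GCGTG begins, so that these motifs can overlap.
Sema4c: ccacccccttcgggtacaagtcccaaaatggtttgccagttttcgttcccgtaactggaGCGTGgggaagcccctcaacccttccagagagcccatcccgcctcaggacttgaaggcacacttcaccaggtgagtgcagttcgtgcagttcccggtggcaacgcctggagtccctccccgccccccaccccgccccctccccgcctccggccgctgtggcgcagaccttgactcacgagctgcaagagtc
Sema6d: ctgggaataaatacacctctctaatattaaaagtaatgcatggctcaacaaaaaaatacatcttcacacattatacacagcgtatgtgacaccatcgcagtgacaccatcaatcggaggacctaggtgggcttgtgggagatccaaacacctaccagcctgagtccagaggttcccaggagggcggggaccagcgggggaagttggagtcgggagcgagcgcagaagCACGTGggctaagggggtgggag
Epha5: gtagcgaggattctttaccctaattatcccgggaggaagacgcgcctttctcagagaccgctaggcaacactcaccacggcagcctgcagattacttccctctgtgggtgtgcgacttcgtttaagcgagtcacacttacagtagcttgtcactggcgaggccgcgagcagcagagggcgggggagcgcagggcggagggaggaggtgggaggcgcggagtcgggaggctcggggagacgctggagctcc
Ephb3: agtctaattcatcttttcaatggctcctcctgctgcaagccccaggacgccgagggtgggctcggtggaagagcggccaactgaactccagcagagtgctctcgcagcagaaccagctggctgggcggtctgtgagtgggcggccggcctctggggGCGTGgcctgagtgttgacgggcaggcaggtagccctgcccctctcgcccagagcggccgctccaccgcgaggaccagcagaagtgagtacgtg

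The windows shown for *Sema4c* and *Ephb3* hold GCGTG at 1 place each, that of *Sema6d* holds CACGTG at 1 place, and that of *Epha5* holds none of the motifs. The windows at the other start of *Sema4c* and of *Sema6d*, not shown, hold none of the motifs either. GCGTG occurred in 28.2% of all 32851 promoter windows of the same length and in 35.4% of the 79 windows of the guidance genes. CACGTG occurred in 6.02% and 5.06%, and TGACNNNGC in 10.2% and 10.1%. These matches describe the letters of the windows and say nothing of binding.

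Each family is small, and its counts are to be read against 21.6% of all genes higher and 16.4% lower at 4 weeks, and 20.3% and 16.9% at 8 weeks. Semaphorins were the largest family, with 19 of 20 genes tested. At 4 weeks 7 (36.8%) were higher and 2 (10.5%) lower, and at 8 weeks 4 (21.1%) were higher, near the share of all genes, and none lower by the limma fit, while the family's median was 0.06 and then -0.12. *Sema4c*, a membrane-bound semaphorin that binds plexin-B2, was 1.27, 1.14, 1.20 and 1.12 on the 4-week arrays and 1.41, 1.34 and 1.16 on the 8-week arrays. All 7 arrays thus showed a more than 2-fold higher level in DEP tissue, with means of 1.18 ± 0.07 (SD, n = 4; limma adjusted p = 7.86e-06) and 1.30 ± 0.13 (SD, n = 3; limma adjusted p = 6.29e-06). The 2 times differed by 0.12 ± 0.08 (SE), which did not pass the test (limma adjusted p = 0.32). Its probe was bright, at a mean log2 intensity of 12.04 and 11.95, and was well above background in both channels on every array. With the methods' t-test, adjusted over all probes, the 8-week value missed the threshold at an adjusted p of 0.0616 by that test.

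*Sema6d*, a transmembrane semaphorin that signals through plexin-A receptors, was nearly as high. Its ratios were 1.06, 0.99, 0.98 and 1.10 at 4 weeks and 1.17, 1.20 and 1.29 at 8 weeks. The means were 1.03 ± 0.06 (SD, n = 4; limma adjusted p = 6.78e-06) and 1.22 ± 0.07 (SD, n = 3; limma adjusted p = 4.3e-06). A dimmer second *Sema6d* probe was not well above background on any array and was not tested.

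The other semaphorins stayed far below these values. *Sema4c* exceeded the median of the other 18 semaphorins by 1.11 ± 0.08 (SD, n = 4) at 4 weeks and by 1.37 ± 0.06 (SD, n = 3) at 8 weeks. It ranked first on 6 arrays and second, behind *Sema6d*, on replicate 3 of 8 weeks. Against the other 5 members of its own class, *Sema4a*, *Sema4b*, *Sema4d*, *Sema4f* and *Sema4g*, it ranked first on every array, with a distance of 1.07 ± 0.12 (SD, n = 4) and 1.54 ± 0.04 (SD, n = 3).

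**Figure D2:**
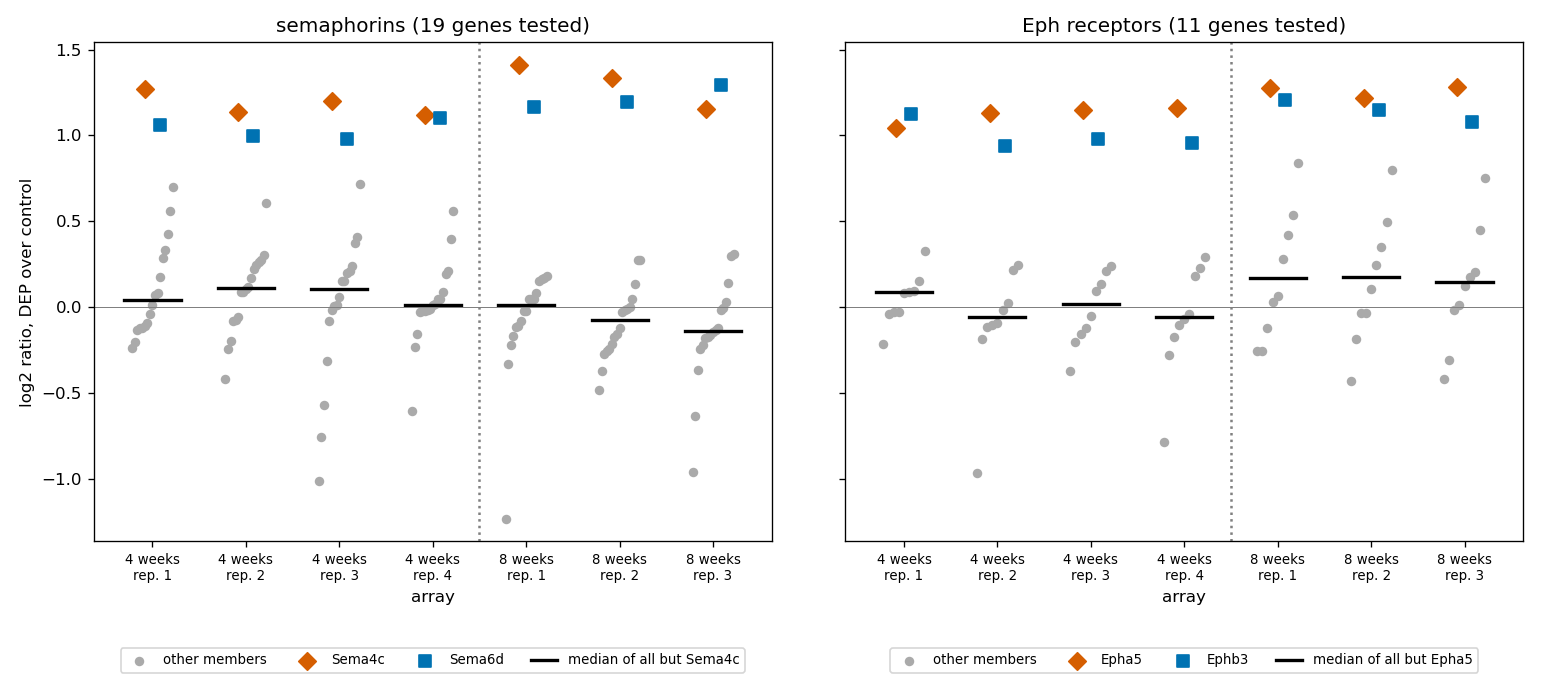
Log2 ratio of DEP over control of every semaphorin (left, 19 genes) and every Eph receptor (right, 11 genes) on each of the 7 arrays; each point is a gene, diamonds mark *Sema4c* and *Epha5*, squares mark *Sema6d* and *Ephb3*, and black bars give the median of the family without *Sema4c* or *Epha5*. The marked genes lie between 0.94 and 1.41 on all arrays, apart from the rest of their families at 4 weeks and, for the semaphorins, at 8 weeks, while the medians of the others lie between -0.14 and 0.18.

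A further group of semaphorins was higher at 4 weeks and not at 8 weeks. *Sema4g* was 0.70, 0.60, 0.72 and -0.02 at 4 weeks and -0.22, -0.37 and -0.37 at 8 weeks, and its times differed by -0.82 ± 0.18 (SE, limma adjusted p = 0.0125). Replicate 4 of 4 weeks stood apart from the other 3 arrays of that time and lay closer to 0. *Sema3f*, a secreted repellent that binds neuropilin-2, was 0.29 at 4 weeks (limma adjusted p = 0.0116) and -0.03 at 8 weeks. *Sema6c* was 0.32 (limma adjusted p = 0.0114) and -0.19, and *Sema7a*, a membrane-anchored semaphorin that acts through integrins and plexin-C1, was 0.24 (limma adjusted p = 0.0177) and -0.12. The dimmer *Sema6c* probe gave 0.40 at 4 weeks (limma adjusted p = 0.00939) and 0.09 at 8 weeks (limma adjusted p = 0.515). Its difference of -0.31 did not pass the test (limma adjusted p = 0.12). *Sema6a* was close to the same at both times, at 0.28 and 0.25, and passed the test at both.

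*Sema3c*, a secreted semaphorin of blood vessels and connective tissue, went the other way, with -0.09, -0.42, -0.57 and -0.61 at 4 weeks and -0.08, 0.14 and -0.16 at 8 weeks. It was lower at 4 weeks (mean -0.42, limma adjusted p = 0.00959), and its 8-week mean of -0.03 did not pass the test. *Sema5a* was -0.15 at 4 weeks and 0.25 at 8 weeks and passed the test in both, with opposite signs. The 4-week call was lost under 13 of 20 alternatives and the 8-week call under 5, and with median centring the 8-week mean was -0.018. The 4-week and 8-week means of *Sema4d* missed the threshold and the difference, -0.72 ± 0.20, passed it (SE, limma adjusted p = 0.0353). That call was lost under 8 of 19 alternatives, the 8-week mean passed under 8 of 20, and its 8-week values of -0.17, -0.27 and -0.96 were widely spread. The 2 probes of *Sema3a*, a repellent of olfactory axons, disagreed. The brighter one gave -0.15 at 8 weeks (limma adjusted p = 0.56) and the other 0.74, 0.94 and 0.81 (limma adjusted p = 0.000117), and that second probe was not well above background on any 4-week array.

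All 9 plexins, the semaphorin receptors, were tested. Of these 3 (33.3%) were higher at 4 weeks and 2 others (22.2%) at 8 weeks, the latter near the share of all genes. None was lower by the limma fit at either time. Between the times 2 were higher at 8 weeks, 3 lower and 4 not called, where 30.8% of all genes differed. *Plxnb2*, the receptor of Sema4c, was 0.66, 0.64, 0.79 and 0.61 at 4 weeks and 0.16, -0.07 and -0.28 at 8 weeks. *Plxna4*, a receptor partner of neuropilin-1, was 0.43, 0.67, 0.68 and 0.74 and then -0.11, -0.05 and -0.24. *Plxna3* was 0.67, 0.66, 0.55 and 0.47 and then -0.22, -0.25 and -0.03. For each of these receptors every 4-week array lay above every 8-week array. The share of all genes with such a gap was not counted. *Plxnb2*, *Plxna4* and *Plxna3* were named for their 4-week values and their differences, so the gap follows in part from that choice.

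The 8-week means of these genes did not pass the test, and the differences between the times were -0.74 ± 0.11 for *Plxnb2* (SE, limma adjusted p = 0.00254), -0.76 ± 0.10 for *Plxna4* (SE, limma adjusted p = 0.00112) and -0.75 ± 0.09 for *Plxna3* (SE, limma adjusted p = 0.000895). *Plxnd1*, a receptor of endothelial cells, had the opposite course. It was -0.04, -0.30, -0.11 and 0.00 at 4 weeks and 0.42, 0.45 and 0.57 at 8 weeks, a difference of 0.59 ± 0.09 (SE, limma adjusted p = 0.00295). The dimmer *Plxnd1* probe gave 0.28 at 8 weeks (limma adjusted p = 0.071). Its difference of 0.29 did not pass the test either (limma adjusted p = 0.158). *Plxna1* was 0.11 and 0.49, the latter with a limma adjusted p of 0.00263. *Plxnb3* had the lowest plexin mean at 4 weeks, -0.69, which rested on 1 array at -2.60 and did not pass the test (limma adjusted p = 0.33; n = 3, since its spot on replicate 2 was not uniform); without replicate 3 the mean was 0.26.

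Neither neuropilin was higher. *Nrp2*, which binds class 3 semaphorins and is used by olfactory axons, was between -0.16 and 0.13 at 4 weeks and was -0.30, -0.31 and -0.14 at 8 weeks. The 8-week mean of -0.25 was lower than 0 (limma adjusted p = 0.0243). The dimmer *Nrp2* probe gave 0.15 at 4 weeks (limma adjusted p = 0.072) and -0.12 at 8 weeks (limma adjusted p = 0.214). The DEP signal of *Nrp1* was not well above background on any 8-week array.

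Of 14 Eph receptors 11 were tested, and 7 of these were called at 8 weeks, where 37.2% of all genes were. At 4 weeks 4 (36.4%) were higher and 2 (18.2%) lower, and at 8 weeks 5 (45.5%) were higher and 2 (18.2%) lower, with a median of -0.01 and then 0.30. *Epha5*, a receptor of the A class that binds ephrin-A ligands, was 1.04, 1.13, 1.15 and 1.16 at 4 weeks and 1.28, 1.22 and 1.28 at 8 weeks. All 7 arrays were more than 2-fold higher in DEP tissue, with means of 1.12 ± 0.05 (SD, n = 4; limma adjusted p = 4.54e-06) and 1.26 ± 0.04 (SD, n = 3; limma adjusted p = 2.96e-06). The difference between the times, 0.14 ± 0.07 (SE), did not pass the test (limma adjusted p = 0.16).

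The value of *Epha5* depended on the probe. A second, dimmer probe of the gene, at a mean log2 intensity of 7.34 against 10.41, gave 0.40, 0.28, 0.17 and 0.36 at 4 weeks (limma adjusted p = 0.0424) and -0.17, -0.07 and 0.44 at 8 weeks (limma adjusted p = 0.69). Averaged over both probes the gene was 0.71 at 4 weeks and 0.66 at 8 weeks. By its brighter probe *Epha5* exceeded the median of the other 10 Eph receptors by 1.12 ± 0.12 (SD, n = 4) at 4 weeks and by 1.09 ± 0.05 (SD, n = 3) at 8 weeks. It ranked first on 6 arrays and second, behind *Ephb3*, on replicate 1 of 4 weeks.

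*Ephb3*, a B-class receptor of epithelium and neurons, was 1.12, 0.94, 0.98 and 0.96 at 4 weeks and 1.21, 1.15 and 1.08 at 8 weeks. Its 4-week mean of 1.00 ± 0.08 (SD, n = 4; limma adjusted p = 9.96e-06) fell just short of 2-fold, and its 8-week mean was 1.14 ± 0.06 (SD, n = 3; limma adjusted p = 6.96e-06). *Ephb2* was 0.09, 0.21, 0.09 and 0.23 at 4 weeks and 0.84, 0.80 and 0.75 at 8 weeks. That difference was 0.64 ± 0.07 (SE, limma adjusted p = 0.000668). *Ephb4*, a receptor of veins, was -0.08 and then 0.37 (limma adjusted p = 0.00494 at 8 weeks), and its dimmer probe gave -0.19 at 8 weeks, which did not pass the test.

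*Epha1*, a receptor of epithelium, was -0.03, -0.97, -0.37 and -0.78 at 4 weeks and 0.28, 0.25 and 0.45 at 8 weeks. The 4-week mean of -0.54 ± 0.42 (SD, n = 4) was lower than 0 (limma adjusted p = 0.0195) with a wide spread, and the difference between the times was 0.86 ± 0.21 (SE, limma adjusted p = 0.0198). *Epha7* was lower at both times, at -0.18 (limma adjusted p = 0.0261) and -0.33 (limma adjusted p = 0.00391), and its 4-week call was lost under 10 of 19 alternatives. A second *Epha7* probe, not well above background in the control channel on 3 of the 4 arrays, gave 0.16 at 4 weeks (limma adjusted p = 0.0332), so that its probes disagreed. The remaining probe gave -0.11 and -0.20, neither past the test. *Epha2* was -0.24 at 8 weeks (limma adjusted p = 0.0431), a call lost under 9 of 20 alternatives.

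All 8 ephrins were tested, and the members with the largest values moved with exposure time. *Efna1*, the ephrin-A ligand of epithelium and endothelium, was -0.55, -0.70, -1.17 and -0.76 at 4 weeks and 0.18, 0.21 and 0.12 at 8 weeks. Its 4-week mean of -0.80 ± 0.27 (SD, n = 4; limma adjusted p = 0.000584) was the lowest of all guidance genes called, and the difference between the times was 0.97 ± 0.14 (SE, limma adjusted p = 0.00227). *Efnb1*, a ligand of EphB receptors, was -0.41, -0.29, -0.22 and -0.12 at 4 weeks and 0.63, 0.83 and 0.76 at 8 weeks, so that it was lower at the first time (limma adjusted p = 0.0125) and higher at the second (limma adjusted p = 0.000172). *Efna5*, a ligand of Epha5 known to steer olfactory axons, was 0.43, 0.55, 0.43 and 0.49 at 4 weeks and 0.02, 0.16 and 0.19 at 8 weeks.

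The 4-week mean of *Efna5* was 0.48 ± 0.06 (SD, n = 4; limma adjusted p = 0.000304), and the 8-week mean of 0.12 did not pass the test. *Efna2* was 0.06 and 0.35, the latter with a limma adjusted p of 0.00161. *Efna3* was 0.35 at 4 weeks (limma adjusted p = 0.0267) and its dimmer probe was -0.49 at 8 weeks (limma adjusted p = 0.00312), where the brighter one gave 0.14 and did not pass the test. *Efnb2* had 1 array at -1.14 among 4-week values that were otherwise between -0.12 and -0.04, and its mean did not pass the test.

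All 3 Slits were tested and 1 was higher at 4 weeks. *Slit1*, a repellent expressed in neurons, was 0.55, 0.41, 0.30 and 0.25 at 4 weeks (limma adjusted p = 0.00207) and -0.13, -0.16 and -0.21 at 8 weeks, where it did not pass the test, a difference of -0.55 ± 0.09 (SE, limma adjusted p = 0.00349). *Slit2* and *Slit3* were 0.30 and 0.19 at 8 weeks, with limma adjusted p of 0.0432 and 0.0495. None of the 3 Robos tested was called at either time by the limma fit. For *Robo2*, a Slit receptor needed for sorting olfactory axons, the brighter probe gave 0.31, 0.11, 0.06 and 0.06 at 4 weeks (limma adjusted p = 0.24) and -0.47, -0.29 and 0.04 at 8 weeks (limma adjusted p = 0.095). Its dimmer probe gave 0.36, 0.68, 0.28 and 0.50 at 4 weeks (limma adjusted p = 0.00214) and was well above background in the control channel on 1 of those 4 arrays.

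*Dcc*, the netrin receptor that mediates attraction, had the largest 8-week value of all guidance genes. It was 0.53, 0.35, 0.36 and 0.21 at 4 weeks and 1.67, 1.69 and 1.43 at 8 weeks. The means were 0.36 ± 0.13 (SD, n = 4; limma adjusted p = 0.00498) and 1.59 ± 0.14 (SD, n = 3; limma adjusted p = 6.29e-06), and the difference was 1.23 ± 0.10 (SE, limma adjusted p = 0.000185). These values come from 1 bright probe, at a mean log2 intensity of 13.13 and 13.14. Its other 2 probes were not tested. Their DEP signals were not well above background on any array, and of their control signals 1 probe's was on 1 array and the other's on none.

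*Unc5b*, a netrin receptor of endothelium, was 0.52, 0.49, 0.46 and 0.25 at 4 weeks (limma adjusted p = 0.000944) and 0.28, 0.28 and 0.33 at 8 weeks (limma adjusted p = 0.00929). With median centring its 8-week mean was -0.033. *Unc5a* was 0.34 at 4 weeks (limma adjusted p = 0.00124) and 0.11 at 8 weeks. None of the 3 netrins tested was called by the limma fit. *Ntn1*, the netrin that binds Dcc, was -0.03, -0.11, -0.19 and -2.94 at 4 weeks and -0.29, -0.39 and -0.49 at 8 weeks, and its 4-week mean of -0.82 rested on replicate 4 and did not pass the test (limma adjusted p = 0.19). The DEP and control channels of *Epha10*, *Unc5c* and *Nrp* were not well above background on any 4-week array, nor was the control signal of *Ntn3* and *Sema5b*, and the DEP signals of *Plxnc1* and *Sema5b* were not at 8 weeks.

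Between the times, 21 of the 64 genes differed by the limma fit, where 30.8% of all genes did, 10 of them (15.6%) higher at 8 weeks, where 14.8% of all genes were, and 11 (17.2%) lower, where 16.1% of all genes were. The shares of the guidance genes were thus near those of all genes. By the study's thresholds *Dcc* alone was higher at 8 weeks than at 4 weeks, where 1.9% of all genes were, and none was lower, where 1.16% were. Median centring gave 7 higher and 14 lower, and the processed signals gave 9 and 18. At these settings 28.7% and 35.6% of the calls over all genes were higher, beside 33.3% of those of the guidance genes at each. The genes that were higher at 8 weeks than at 4 weeks were *Dcc*, *Efnb1*, *Efna1*, *Epha1*, *Ephb2*, *Plxnd1*, *Ephb4*, *Sema5a*, *Plxna1* and *Efna2*, with differences from 1.23 down to 0.28. Of these, the call of *Plxna1* was lost under 10 of 19 alternatives. The genes that were lower were *Sema4g*, *Plxna4*, *Plxna3*, *Plxnb2*, *Sema4d*, *Slit1*, *Sema6c*, *Efna5*, *Sema7a*, *Sema3f* and *Unc5a*, with differences from -0.82 to -0.23. Without replicate 2 of 8 weeks the count was 13 in place of 21.

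**Figure D3:**
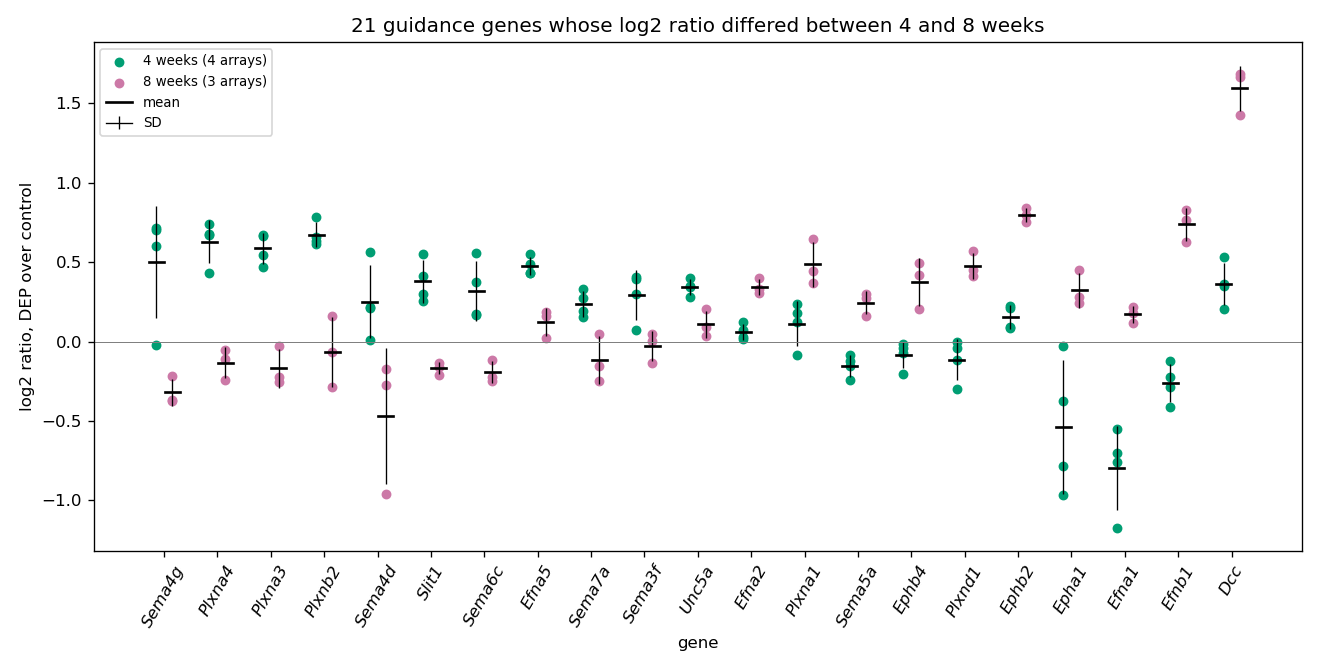
Log2 ratio of DEP over control on each array for the 21 guidance genes whose ratio differed between the exposure times (horizontal axis, ordered by the difference); green points are the 4 arrays of 4 weeks, pink points the 3 arrays of 8 weeks, short bars the means and vertical lines the SD. Plexins and semaphorins fill the left side, with 4-week means above 8-week means, and *Efna1*, *Efnb1* and *Dcc* lie at the right end, with means of -0.80 and 0.17, -0.26 and 0.74, and 0.36 and 1.59 at 4 and 8 weeks.

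Other genes of the pathway, outside the families above, were counted in 3 lists, beside the same shares of all genes (21.6% higher and 16.4% lower at 4 weeks, 20.3% and 16.9% at 8 weeks). Of 23 guidance coreceptors and other cues tested, 8 (34.8%) were higher and 3 (13%) lower at 4 weeks, and 5 were higher and 5 lower at 8 weeks (21.7% each), with medians of 0.03 and -0.05. *Flrt1*, a membrane protein that binds Unc5 receptors, was 0.71 at 4 weeks (limma adjusted p = 0.00106) and -0.57 at 8 weeks (limma adjusted p = 0.00547). *Ptprs*, a receptor phosphatase of axons, was 0.65 at 4 weeks (limma adjusted p = 0.000165). *Dscam* and *Cdon*, receptors that bind netrins or hedgehog, were 0.58 and 0.47 at 4 weeks. At 8 weeks *Flrt3* was 0.48 and *Lrig2* was 0.36. *Sdc3*, a heparan sulfate proteoglycan, was 0.28 at 4 weeks (limma adjusted p = 0.0322) and -0.65 at 8 weeks (limma adjusted p = 0.00171).

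Of 47 genes for guidance signalling inside the growth cone, 14 (29.8%) were higher and 7 (14.9%) lower at 4 weeks, and 6 (12.8%) were higher and 9 (19.1%) lower at 8 weeks, so that both shares of lower genes were near those of all genes. *Dpysl5*, which the study also lists as changed, is of the collapsin response mediator proteins that act below semaphorin receptors. It was 1.07 at 4 weeks (range 1.03 to 1.17; limma adjusted p = 6.24e-06) and 1.18 at 8 weeks (range 1.15 to 1.25; limma adjusted p = 4.59e-06). *Map1b*, a microtubule protein of growing axons, was 1.03 at 4 weeks (limma adjusted p = 0.000348). *Srgap1*, a Robo effector, was 0.74 at 4 weeks (limma adjusted p = 3.24e-05) and -0.30 at 8 weeks (limma adjusted p = 0.00457). *Trio*, an exchange factor below Dcc, was 0.84 at 8 weeks (limma adjusted p = 0.000999). The adaptor *Nck1* was called at 4 weeks, at -0.75 (range -1.69 to -0.31). *Crmp1* was 0.43 at 4 weeks and -0.41 at 8 weeks, and *Rnd1* was -0.32 and then 0.38, each called at both times.

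Of 20 neural adhesion molecules of axons, 6 (30%) were higher and 2 (10%) lower at 4 weeks, and 4 (20%) were higher, as among all genes, and 6 (30%) lower at 8 weeks. *Tenm2* and *Tenm4*, teneurins of the neuronal surface, were 0.87 and 0.71 at 4 weeks, with limma adjusted p of 1.78e-05 and 4.52e-05. *Pcdh17* and *Ncam1*, a protocadherin and the neural cell adhesion molecule, were 0.62 and 0.59. At 8 weeks *Pcdh10*, a protocadherin of olfactory axons, was -0.84 (limma adjusted p = 8.76e-05). *Kirrel2*, an adhesion molecule that helps to sort olfactory axons, was -0.68 (limma adjusted p = 0.000418), its relative *Kirrel* was 0.80 (limma adjusted p = 0.000279) and *Cdh4* was -0.49.

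Markers of some cell types of the nose moved with exposure time as well. Among all genes tested, 21.6% were higher and 16.4% lower at 4 weeks, and 20.3% were higher and 16.9% lower at 8 weeks. Of 15 genes of mature olfactory neurons, 10 (66.7%) were higher at 4 weeks and none lower, with array medians of 0.33 to 0.48. At 8 weeks 12 (80%) were lower and none higher, with array medians of -0.57 to -0.38. *Omp*, the marker protein of these neurons, was 0.89 and then -0.43. The DEP and the control signal of all 15 genes were well above background on each of the 7 arrays, *Omp* at a mean log2 intensity of 16.4, so that the labelled tissue held RNA of olfactory neurons. Of 8 genes of sustentacular cells, 7 (87.5%) were higher at 4 weeks and 7 (87.5%) lower at 8 weeks. Of this list, *Ermn* was higher at 8 weeks at 1.70 (limma adjusted p = 2.36e-06). Of 10 fibroblast genes, 9 (90%) were lower at 4 weeks, with array medians of -0.52 to -0.44. At 8 weeks 4 (40%) were higher, with array medians of 0.11 to 0.39. Of 10 genes of basal and squamous epithelium, 8 (80%) were lower and 1 (10%) higher at 4 weeks. At 8 weeks 6 (60%) were lower and 2 (20%) higher, the latter near the share of all genes. Of 11 endothelial genes 4 (36.4%) were lower and 1 (9.09%) higher at 4 weeks. At 8 weeks 1 was lower and 1 higher (9.09% each), below the shares of all genes.

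These list medians changed sign between the times for the mature neurons, sustentacular cells and fibroblasts. The endothelial median went from -0.15 to 0.03, and that of skeletal muscle from 0.10 to -0.38. Other lists kept their sign, with -0.88 and -0.38 for basal and squamous epithelium and 0.30 and 0.04 for immature olfactory neurons. Respiratory ciliated cells had 0.28 and 0.09, lymphocytes and myeloid cells -0.05 and -0.10. Ensheathing glia and Schwann cells had -0.02 at both times. The part of the cell types in the values of the guidance genes was not tested.

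**Figure D4:**
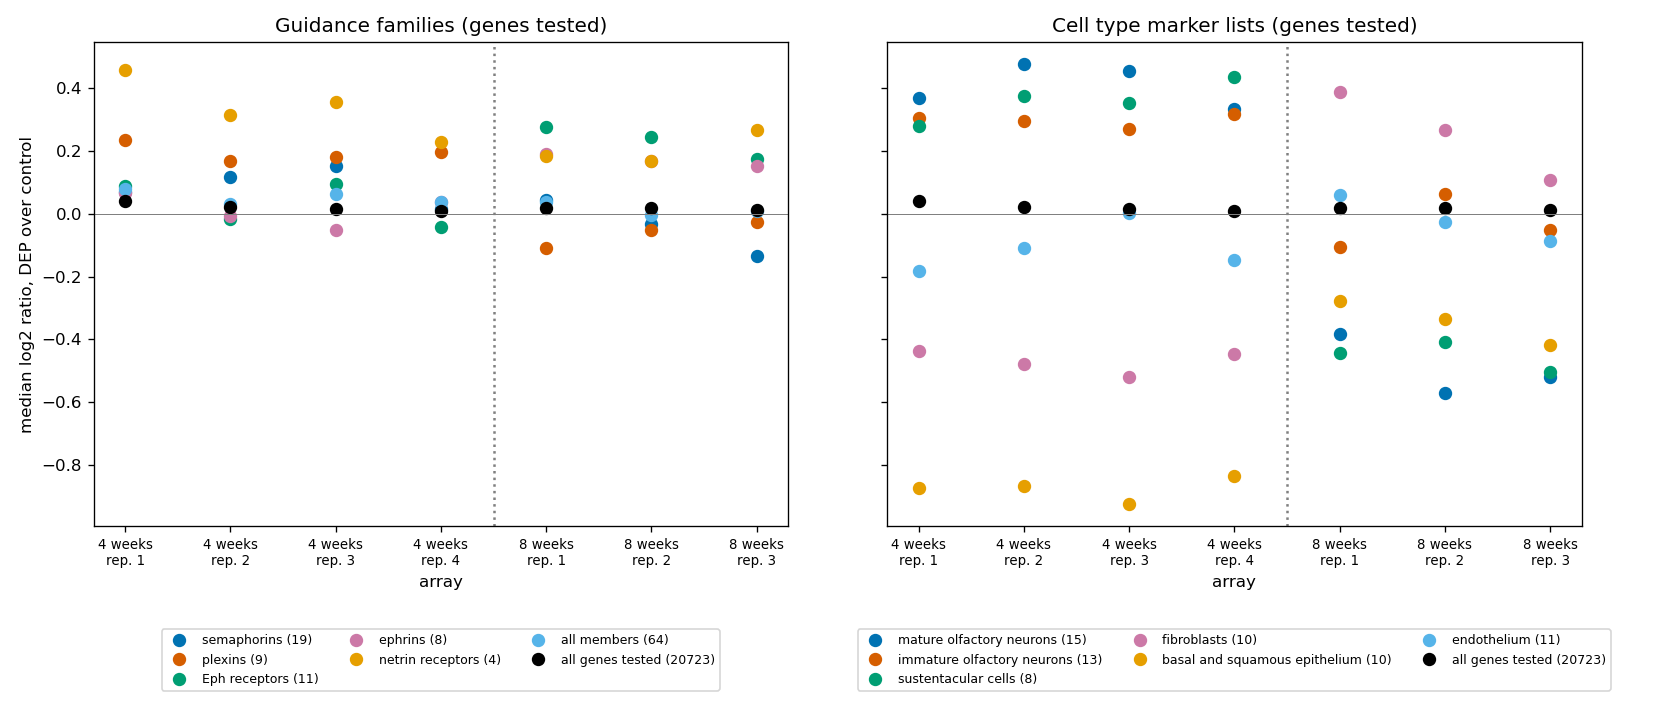
Median log2 ratio of DEP over control on each of the 7 arrays for 5 guidance families and all members (left) and for 6 lists of cell type markers (right), with the number of genes tested in brackets; black points are all genes tested. The netrin receptors lie above all genes on all 7 arrays, the plexins do so at 4 weeks, the Eph receptors and ephrins at 8 weeks, and the lists of mature olfactory neurons and sustentacular cells lie above 0 at 4 weeks and below 0 at 8 weeks.

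Per array, the DEP signal was well above background for 18661 to 25098 probes and the control signal for 17105 to 26964, and 0 spots were saturated. The log2 ratios of all probes correlated at 0.44 to 0.49 among the 4-week arrays, at 0.71 to 0.88 among the 8-week arrays and at 0.09 to 0.29 between them, as a description over probes of arrays that share a slide within a time. The mean log2 intensity of the 64 genes ran from 6.35 to 13.13, and for a dim probe the added offset of 50 makes a ratio too small. With 4 and 3 arrays per time, their number limits the precision.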

How the data were processed

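Nasal tissue RNA was measured on 7 two-colour Agilent arrays. Per the file headers, Feature Extraction 10.10.1.1 made the deposited intensity values: median spot signals and local backgrounds, neither subtracted nor normalized, and processed signals, background-subtracted and dye-normalized. The GeneSpring step of the paper's methods was not repeated. Files carry an mm9 grid; probes were named through RefSeq transcripts and no file coordinates were used.

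With limma 3.58.1 in R 4.3.3, median signals were background-corrected by normexp (offset 50, parameters fitted without spots the scanner software marks as outliers) and log2 ratios were normalized by loess (span 0.3). Non-uniform spots were left out and repeated spots averaged. Tested probes had a DEP or control signal well above background on 3 arrays or more (25236 of 39429). A gene takes the value of its brightest tested probe, and 13 guidance genes had more than 1. Of these 13, 6 had probes of opposite sign at 4 weeks and 5 at 8 weeks. One fit gave a mean per exposure time and their difference, with Benjamini-Hochberg adjustment over all probes tested. SE are those of the fit.

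The members, lists and tests were chosen with earlier results of these data known. Genes named are *Sema4c*, *Epha5*, members the study lists, the 10 highest and 10 lowest called members at each time with 1 sign on every array, the 5 highest and 5 lowest differences, each family's largest 4-week value, the 4 largest called genes of each pathway list at each time, and members whose probes disagree. Other members in the text were named after their values were seen. The steps were tested on simulated arrays of 20723 genes: of 76 genes changed by 1 on the log2 scale at 4 weeks, 76 were called, with a median estimate of 0.72 because the offset shrinks dim probes; at 0.6, 60 of 74 were called. At 8 weeks these were 69 of 74 and 56 of 76. Of 20573 unchanged genes, 7 and 14 were called. The simulated arrays had independent noise per gene and a smooth dye trend, but no dye effect of single probes and no shared slide effect. These counts therefore do not give the rate of false calls on the real arrays.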

Additional observations from a re-analysis of the deposited data

Results flagged for a closer look

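Of the genes named, 16 differed between the exposure times by the limma contrast of 8 minus 4 weeks. Higher at 8 weeks were *Dcc* (1.23), *Efnb1* (1.00), *Efna1* (0.97), *Epha1* (0.86), *Ephb2* (0.64), *Plxnd1* (0.59), *Ephb4* (0.46), *Sema5a* (0.40) and *Plxna1* (0.37). Lower at 8 weeks were *Sema4g* (-0.82), *Plxna4* (-0.76), *Plxna3* (-0.75), *Plxnb2* (-0.74), *Sema4d* (-0.72), *Slit1* (-0.55) and *Efna5* (-0.35). Their limma adjusted p ran from 0.000185 to 0.0353, and the slide cannot be told apart from the time. Under the alternatives, the call of *Plxna1* was lost in 10 of 19 and that of *Sema4d* in 8 of 19.

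On 3 genes 1 array of 4 weeks lay far from the others. *Sema4g* was -0.019 on replicate 4 against 0.60 to 0.72 on the other arrays, *Ntn1* was -2.94 on replicate 4 against -0.19 to -0.03, and *Sema3a* was -1.01 on replicate 3 against -0.23 to -0.13. Dixon's test was applied to 32 genes, and chance marks about 1 group in 20.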

How the results depend on the processing

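*Sema4c* and *Epha5* kept their direction under all alternatives, and *Epha5* also its side of the threshold at both times. *Sema4c* ranged from 1.08 to 1.21 at 4 weeks and from 1.04 to 1.37 at 8 weeks, where the methods' t-test left its value of 1.30 at an adjusted p of 0.0616. Counts of members were less stable, and the cause was not tested. For genes higher at 4 weeks (20), the methods' t-test gave 13 and the study's thresholds 3. For genes lower at 4 weeks (6), background parameters fitted on all spots gave 3, the t-test 1 and the study's thresholds 0. For genes higher at 8 weeks (17), median centring gave 9, the replicate block 11, the t-test 1 and the study's thresholds 5. For genes lower at 8 weeks (3), the processed signals gave 7, an offset of 10 gave 5, median centring 18, the 8-week arrays alone 8, and the t-test and the study's thresholds 0 each. For differences between the times (21), the replicate block gave 12 and the study's thresholds 1. Leaving out 1 array at a time gave 17 to 20, 3 to 6, 11 to 18, 1 to 5 and 13 to 22 in the same order, with 3 lower at 4 weeks without replicate 2 or 4 of that time, 11 higher, 1 lower and 13 different without replicate 2 of 8 weeks, and 5 lower at 8 weeks without replicate 1 of 4 weeks. The t-test was adjusted over all probes, and at an unadjusted p under 0.05 it gave 25 members at each time. With the adjustment it called 22.5% of all genes at 4 weeks and 1.9% at 8 weeks. The replicate numbers did not pair the arrays: deviations of same-numbered arrays correlated at -0.01, -0.01 and 0.02. Without single 4-week arrays *Plxnb3* ranged from -1.20 to 0.26 at 4 weeks and from -0.55 to 0.92 in the difference. Values that turned sign and were called under one of the settings were, with median centring at 8 weeks, *Unc5b* (-0.033), *Sema5a* (-0.018), both above the median of all genes at that setting, and *Unc50* (-0.33); without replicate 3 of 4 weeks, *Plxnb3* at 4 weeks (0.26) and in the difference (-0.55); and with the mean over probes, *Sema3a* at 8 weeks (0.34). Of the values for single genes under single alternatives, 1645 kept their side of the threshold (27 of these, called under neither setting, changed sign), 150 lost a call and 51 gained one. Probes near background limit what can be seen of dim genes.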
